A study of Mus musculus with 19 samples.

Results

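The mitosis genes described here are 35 genes whose products carry out or mark cell division, from the cyclins and kinases that start mitosis to the proteins that cut the daughter cells apart. They were chosen by gene symbol, with earlier results of these data known, as 35 of the 22878 symbols in the deposited RNA tables (50 of 29257 transcripts). For each symbol the transcript used was the one with most reads, summed over the 16 RNA libraries. The cells are mouse T helper 2 (Th2) cells, CD4 T cells that secrete interleukins 4, 5 and 13. In the Bcl11b experiment, naive CD4 T cells carried a floxed Bcl11b gene (Bcl11b fl/fl) and CreERT2, a Cre recombinase that 4-hydroxytamoxifen (4-OHT) switches on. Early cells were cultured for 4 days under Th2 conditions. Late cells went through that culture, rested for 1 day with IL-2, and were cultured under Th2 conditions for 4 days again. Wild-type (WT) cultures had the same genotype without 4-OHT and knockout (KO) cultures had 4-OHT, in the last 4 days for late cells, and effects of drug and deletion cannot be told apart. In the Gata3 experiment the groups are also early and late WT and KO, but the allele, the Cre and the culture are not stated in the labels. Each of the 8 RNA groups has 2 libraries, made from 10 ng of RNA. Nothing says that replicates came from separate animals or cultures, and the p-values therefore cover only library-to-library spread, which may be technical.

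Mitosis is entered when cyclin-dependent kinase 1, bound to cyclin A or B, is activated by CDC25 phosphatases. Aurora and Polo-like kinases, kinetochores and spindle motors then attach and separate the chromosomes, and the central spindle guides cytokinesis. Most of these genes are transcribed in G2 and mitosis, under the factors FOXM1 and B-MYB with the MuvB complex and NF-Y, so their RNA in a culture is widely read as a measure of proliferation. Naive CD4 T cells are quiescent and divide repeatedly after activation. In bulk RNA, fewer dividing cells and less RNA per dividing cell cannot be told apart.

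Because the members are known to share promoter elements, their promoters were searched for the CHR (cell cycle genes homology region, TTTGAA) and the CCAAT box (CCAAT) on both strands of the 250 bases before the transcription start. RefSeq promoters (build GRCm38.p6) were matched for 27 members. The CHR was found in 10 of the 27 members (37%), against 16% of all 32851 promoter windows of that length. A CCAAT box was found in 23 members (85.2%, against 33.8% of windows), and at least 2 boxes in 16 (59.3%, against 10.1%). Both elements occurred in 9 members (33.3%, against 5.55%). The 120 bases before the start are given for 9 members with different patterns of change, 5′ to 3′ in the direction of the gene, with each CHR or CCAAT box, or its reverse complement, in capitals.
Cdk1: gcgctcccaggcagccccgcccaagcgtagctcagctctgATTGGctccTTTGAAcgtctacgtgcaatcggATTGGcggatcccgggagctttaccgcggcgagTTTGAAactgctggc
Ccnb1: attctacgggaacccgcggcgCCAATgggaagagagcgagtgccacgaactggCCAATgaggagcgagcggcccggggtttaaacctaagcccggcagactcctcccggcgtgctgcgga
Ccnb2: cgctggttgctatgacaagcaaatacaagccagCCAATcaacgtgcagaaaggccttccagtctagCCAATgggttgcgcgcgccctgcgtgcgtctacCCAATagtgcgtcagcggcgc
Cdc25b: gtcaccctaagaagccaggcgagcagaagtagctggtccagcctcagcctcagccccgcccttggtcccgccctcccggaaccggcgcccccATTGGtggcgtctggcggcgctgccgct
Aurka: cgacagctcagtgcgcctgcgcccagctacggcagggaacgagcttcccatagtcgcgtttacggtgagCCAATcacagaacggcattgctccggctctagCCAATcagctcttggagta
Cdc20: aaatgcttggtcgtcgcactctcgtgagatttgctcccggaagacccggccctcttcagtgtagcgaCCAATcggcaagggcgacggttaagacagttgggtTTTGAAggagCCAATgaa
Kif11: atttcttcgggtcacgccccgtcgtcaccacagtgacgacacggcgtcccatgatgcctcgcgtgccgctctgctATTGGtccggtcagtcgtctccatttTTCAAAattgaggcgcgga
Arhgap19: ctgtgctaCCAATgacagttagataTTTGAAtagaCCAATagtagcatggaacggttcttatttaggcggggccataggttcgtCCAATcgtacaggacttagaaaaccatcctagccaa
Top2a: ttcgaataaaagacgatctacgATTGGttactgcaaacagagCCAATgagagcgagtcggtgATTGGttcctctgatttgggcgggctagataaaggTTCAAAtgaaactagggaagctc

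Counted back from the start, Cdk1 has a CHR at -71 and -15 and CCAAT boxes at -208, -80 and -48, on the minus strand at chr10:69352913-69353032. Top2a, at chr11:99024190-99024309 on the minus strand, has 6 CCAAT boxes and 2 CHRs in its 250 bases. Arhgap19, at chr19:41802085-41802204 on the minus strand, has a CHR at -95 between CCAAT boxes at -112 and -85. Cdc25b, at chr2:131186828-131186947 on the plus strand, has a single CCAAT box at -28 and no CHR in the 250 bases. The other sequences shown lie at chr13:100786487-100786606 (Ccnb1), chr9:70421555-70421674 (Ccnb2), chr2:172370571-172370690 (Aurka), chr4:118437344-118437463 (Cdc20) and, on the plus strand, chr19:37376262-37376381 (Kif11). Except for Kif11 these are on the minus strand.

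Reads assigned to genes numbered 4687552 to 14577958 per library in the Bcl11b experiment and 5117526 to 9892746 in the Gata3 experiment. The 2 early Bcl11b WT libraries stand apart: gene reads were 20.7% and 16.9% of the library total implied by the deposited RPKM, against 40.7% to 60.3% in the other libraries. Their 1465 odorant and vomeronasal receptor transcripts, which T cells are not known to use, had 3.74 and 4.84 reads per kb, against 0.0456 to 0.505 elsewhere. Bcl11b RNA was 126 and 128 CPM (normalised read counts, scaled by library size) in early WT and 66.5 and 54.2 in early KO, a fall of 1.08 ± 0.28 on the log2 scale (SE, edgeR adjusted p = 0.0232). In late cells Bcl11b was 139.7 and 181 CPM in WT and 75.6 and 137 in KO, so the second KO library lay just below the lower WT library (log2 change -0.59 ± 0.28, edgeR adjusted p = 0.421). Gata3 fell in early Gata3 KO by 1.54 ± 0.11 (edgeR adjusted p = 5.8e-06) and in late KO by 0.41 ± 0.11 (edgeR adjusted p = 0.0361). All 9 T cell and Th2 marker genes examined (Cd3d, Cd3e, Cd3g, Cd4, Gata3, Il4, Il5, Il13 and Il4ra) had reads in each of the 16 libraries, but the Th2 cytokines were low in some groups. Il13 was 7.54 and 5.87 CPM and Il5 0.419 and 9.43 CPM in early Bcl11b WT. In early Gata3 KO Il13 was 2.38 and 1.03 CPM, against 214 and 210.3 in WT, and Il5 5.20 and 1.37 CPM, against 393 and 311. In the Gata3 experiment, early and late WT libraries of the same number were closer to each other than to the replicate of their own group. A chi-square statistic of their gene counts per degree of freedom was 4.26 and 2.52 between stages, against 12.8 and 13.5 between the replicates of a stage.

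All 35 mitosis genes passed the filter on low values in both experiments (2 or more of the 8 libraries with an RPKM of 1 or above). They held 0.823% and 0.866% of gene reads in early Bcl11b WT and 0.422% and 0.421% in early KO. In late cells the share was 1.04% and 0.975% in WT and 0.499% and 0.511% in KO. In both stages each KO library lay well below both WT libraries. The Gata3 experiment spread less, from 0.454% in a late KO library to 0.632% in an early KO library. Per kilobase of transcript, the most abundant members in the Bcl11b experiment were Mki67, which encodes the proliferation marker Ki-67, and Top2a, the DNA topoisomerase that untangles sister chromosomes. In late WT these had 307 ± 11.9 and 285 ± 32.7 CPM per kb (SD, n = 2), so their order does not hold beyond the spread, against a median of 51.2 over the 35 members and 13.5 ± 0.106 for Cdc25c, the lowest. Mki67 and Top2a together made up 44.7% to 49.2% of the members' summed CPM in the 8 Bcl11b libraries and 18.1% to 19.8% in the 8 Gata3 libraries. In the Gata3 experiment the highest member per kb was Cenpa, the histone H3 variant of centromeres, with 171 ± 4.43 CPM per kb in early WT, and Arhgap19 and Cenpf were the lowest (7.99 ± 1.35 and 8.32 ± 0.796).

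**Figure D1:**
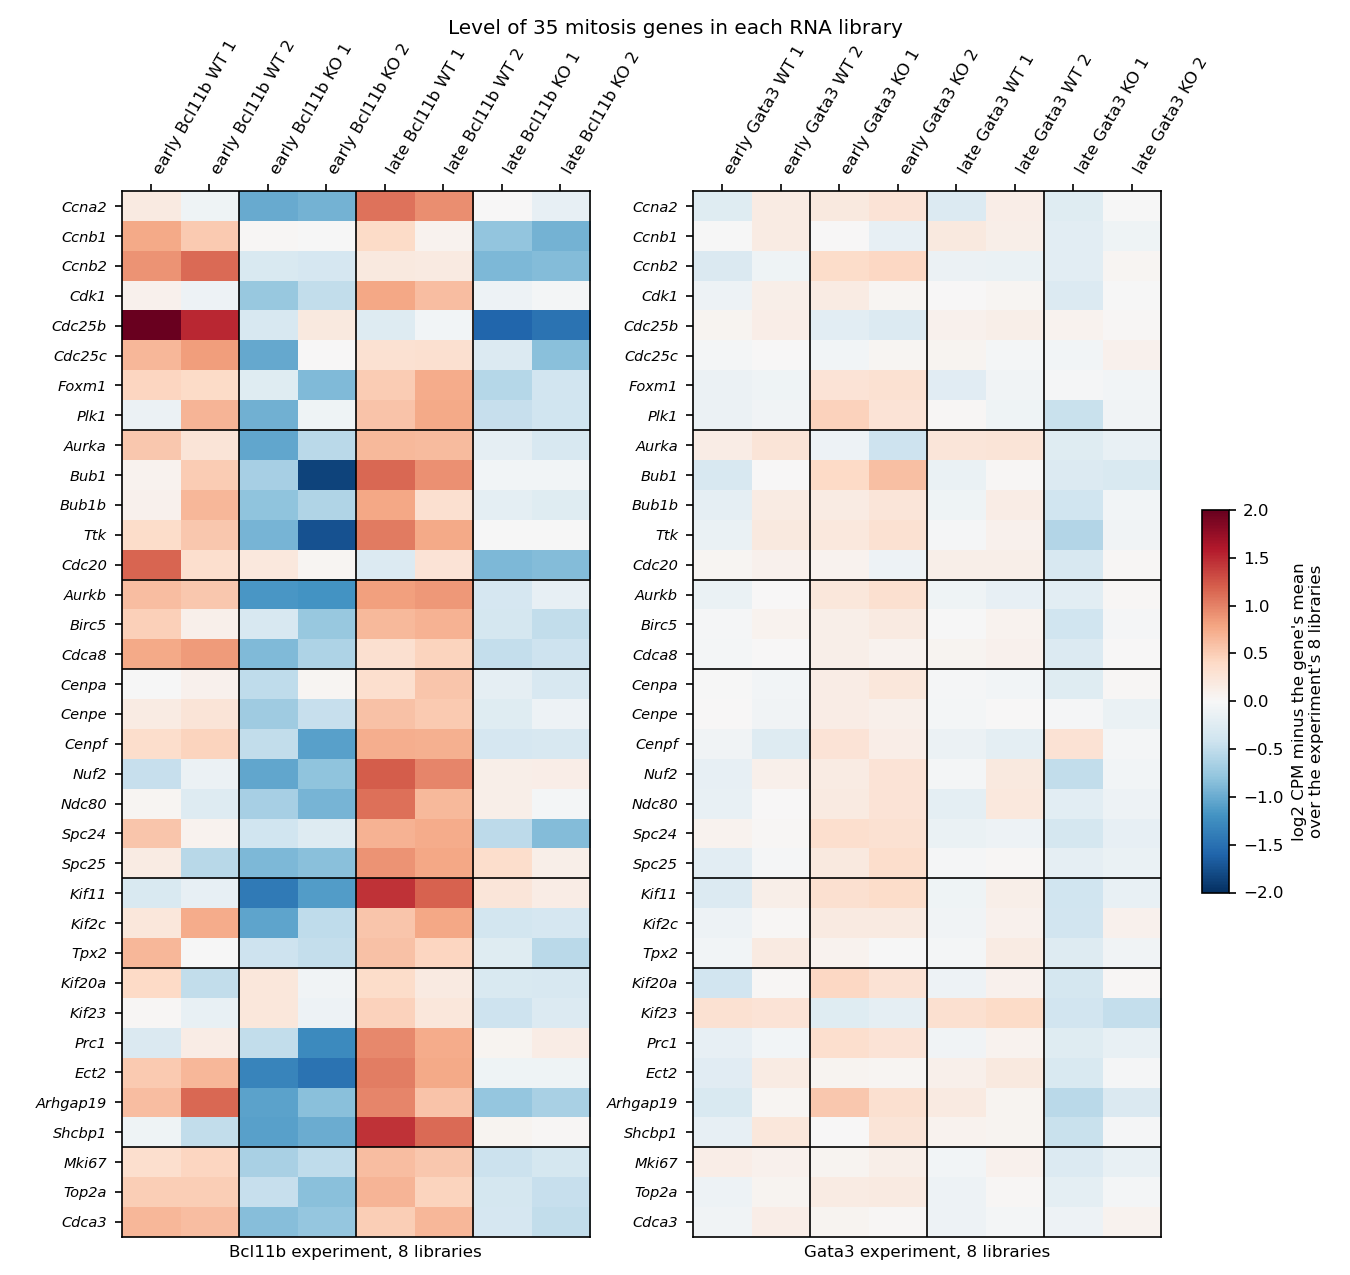
Each cell is the log2 CPM of 1 gene in 1 library minus that gene's mean over the 8 libraries of its experiment; horizontal lines separate the roles. In the Bcl11b experiment both KO columns are lower than both WT columns for 31 of 35 genes in early and 35 of 35 in late cells, and the Gata3 experiment shows paler colours.

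Early Bcl11b KO cells had less mitosis gene RNA than early WT cells. In these, 21 of the 35 genes fell and none rose (edgeR's quasi-likelihood test, Benjamini-Hochberg adjusted p under 0.05), against 10.1% of all 10873 genes tested falling and 11% rising. The members' median log2 change was -0.96, against 0.03 over all genes, and their range was -1.99 (Ect2) to 0.13 (Kif23). In 31 members both KO libraries lay below both WT libraries, as they did in 25.1% of all genes, and in 0 members both lay above, against 28.8%. No member rose at an unadjusted p under 0.05 or with DESeq2. On the scale of the deposited RPKM, whose library totals include the reads outside genes, the median of all genes moved to 0.86 and that of the members to 0.15, with 2 members lower and 3 higher by limma. Relative to all genes the members were thus also lower on that scale, but 9 of the 21 calls changed sign there.

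Among the genes of mitotic entry, 4 of 8 fell in early Bcl11b KO. Cdc25b, a phosphatase that activates CDK1, had 316 and 228 CPM in the WT libraries and 64.3 and 92.3 in the KO libraries. Its log2 change was -1.80 ± 0.25 (edgeR adjusted p = 0.00111), and the groups were well separated. Ccnb2, which encodes cyclin B2, had 269 and 316 CPM in WT and 117 and 114 in KO (log2 change -1.34 ± 0.17, edgeR adjusted p = 0.00079). Ccna2 (cyclin A2) and Foxm1, the transcription factor that drives many of these genes, fell by 1.04 and 0.94. Cyclin B1 and CDK1 themselves did not pass: Ccnb1 was 101 and 85.3 CPM in WT against 60.3 and 59.1 in KO, and Cdk1 96.8 and 84.9 against 54.0 and 65.3. Their groups did not overlap, but their edgeR adjusted p values were 0.077 and 0.0603. Plk1, the Polo-like kinase, overlapped between groups, with 40.8 and 70.6 CPM in WT and 22.8 and 41.6 in KO.

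Of the kinases and regulators of the spindle checkpoint, which delays chromosome separation until all kinetochores are attached, 4 of 5 fell. Ttk, the checkpoint kinase MPS1, had 49.8 and 56.6 CPM in early WT and 20.3 and 11.6 in early KO (log2 change -1.74 ± 0.32, edgeR adjusted p = 0.0043). Bub1 and Bub1b, checkpoint kinases of the kinetochore, fell by 1.44 and 1.11, and Aurka, the Aurora kinase of spindle poles, by 1.17. The exception was Cdc20, the activator of the anaphase-promoting complex, whose WT libraries differed most (161 and 90.5 CPM, against 83.1 and 74.3 in KO, edgeR adjusted p = 0.132). The chromosomal passenger complex, which corrects faulty attachments, fell in all 3 members. Aurkb, its kinase, had 158 and 151 CPM in WT and 46.3 and 45.4 in KO (log2 change -1.75 ± 0.19, edgeR adjusted p = 0.000323). Cdca8 (borealin) fell by 1.55, and Birc5 (survivin) by 0.82, from 200.4 and 155 CPM to 116 and 85.3.

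Of the kinetochore genes 2 of 7 fell in early cells. Cenpe, a kinetochore motor, and Cenpf fell by 0.79 and 1.16. The 4 genes of the NDC80 complex (Ndc80, Nuf2, Spc24 and Spc25), which binds spindle microtubules, had log2 changes of -0.68, -0.64, -0.66 and -0.71, with edgeR adjusted p values from 0.0776 to 0.109. Each of these 4 had both KO libraries below both WT libraries. Cenpa overlapped, at 75.0 and 79.6 CPM in WT and 53.2 and 77.3 in KO. The spindle motors and microtubule binders all fell: Kif11, the motor that pushes spindle poles apart, went from 196 and 216 CPM to 91 and 112 (log2 change -1.02 ± 0.18, edgeR adjusted p = 0.0035). Kif2c, a kinesin that shortens microtubules, and Tpx2, an activator of Aurora A, fell by 1.26 and 0.81.

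Of the genes of the central spindle and cytokinesis 2 of 6 fell in early cells, with log2 changes from -1.99 to 0.13. Ect2, the exchange factor that activates RhoA at the division plane, had the largest fall of any member, from 67.9 and 74.4 CPM in WT to 18.9 and 16.9 in KO (log2 change -1.99 ± 0.25, edgeR adjusted p = 0.000642). Arhgap19, a GTPase-activating protein for RhoA, fell from 124 and 179 CPM to 38.6 and 45.3 (log2 change -1.85 ± 0.25, edgeR adjusted p = 0.00111). The 2 kinesins of the central spindle had log2 changes above 0 and overlapping groups. Kif23 was 152 and 135 CPM in WT and 175 and 139 in KO (log2 change 0.13 ± 0.20, edgeR adjusted p = 0.677), and Kif20a was 149.7 and 80.7 in WT and 133 and 108 in KO (0.07 ± 0.27, edgeR adjusted p = 0.89). Prc1, the microtubule bundler to which they bind, and Shcbp1 had log2 changes of -0.76 and -0.77 that did not pass. The remaining 3 genes all fell. Mki67 went from 2619 and 2778 CPM to 1324 and 1447 (log2 change -0.96 ± 0.13, edgeR adjusted p = 0.00111), and Top2a from 1399 and 1406 to 723 and 562 (-1.13 ± 0.17, edgeR adjusted p = 0.00147). Cdca3, a trigger of mitotic entry through degradation of WEE1, fell by 1.45.

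**Figure D2:**
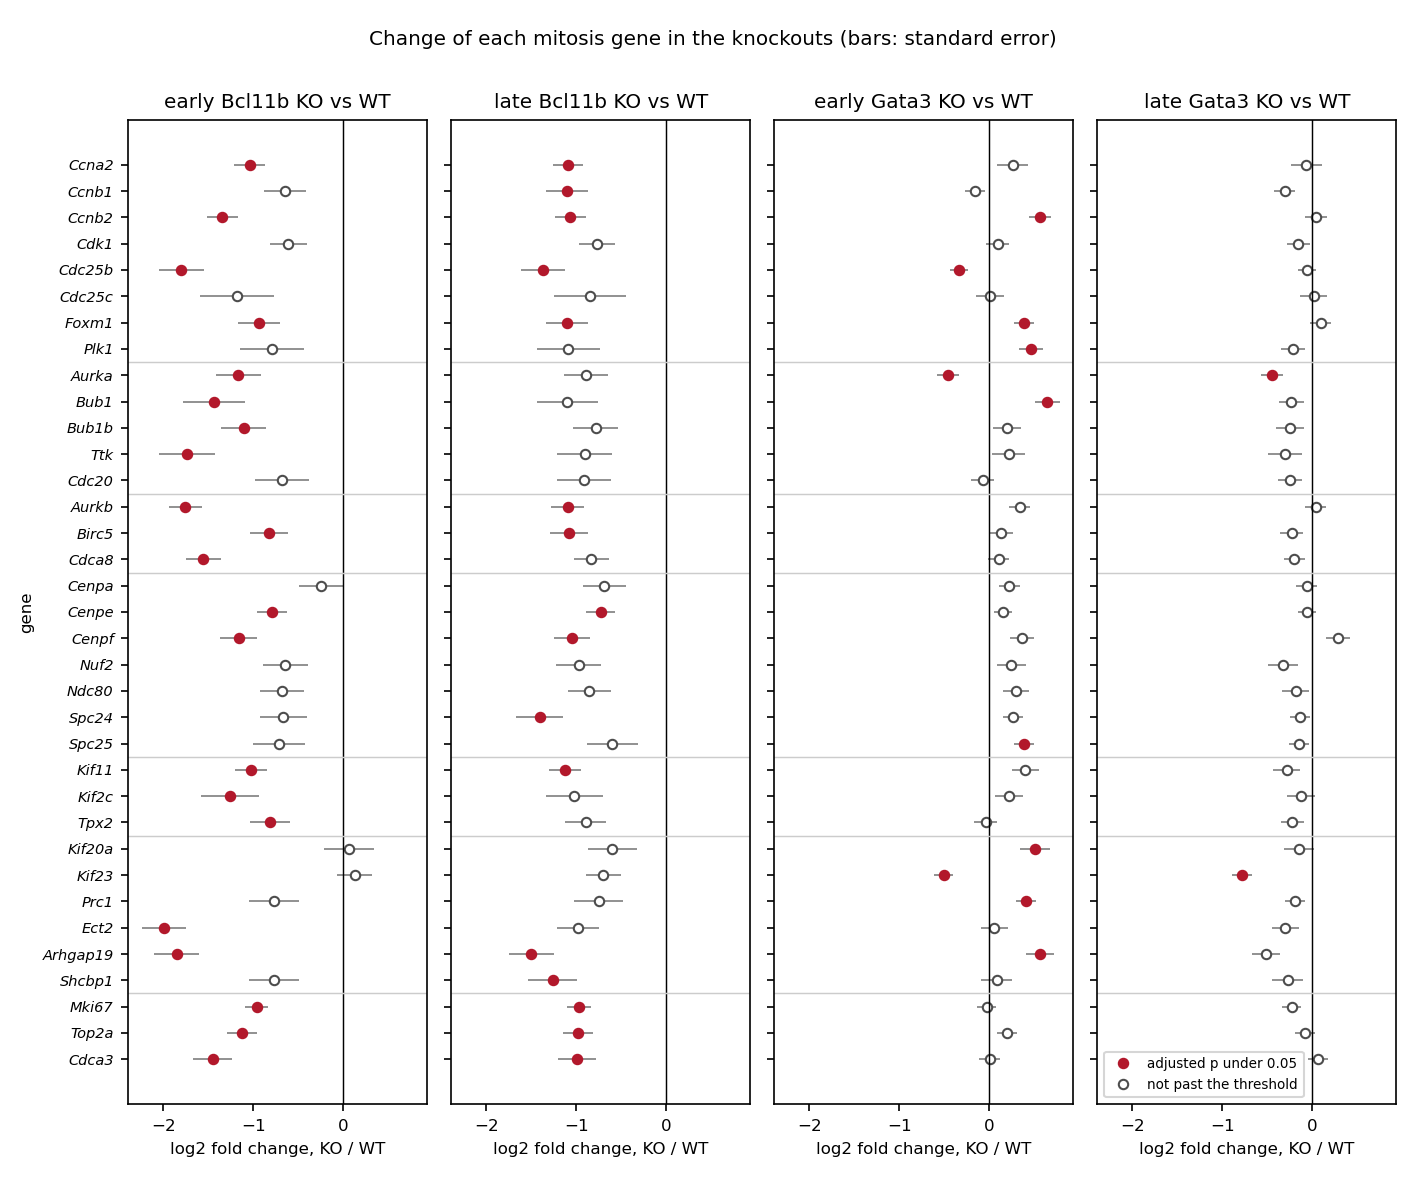
Points are log2 fold changes of KO over WT from edgeR and bars are standard errors; filled points have an adjusted p under 0.05. The Bcl11b panels lie left of 0 except for Kif20a and Kif23 in early cells, and in the Gata3 panels Kif23 and Aurka are the genes called lower in both stages.

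Late Bcl11b KO cells also had less mitosis gene RNA than their WT. Here 16 of the 35 genes fell and none rose, against 0.524% of the 10873 genes tested falling (57 genes in all, of which the mitosis genes were thus 16) and 1.69% rising. The median log2 change was -0.98, against -0.02 over all genes. All 35 members had both KO libraries below both WT libraries, as had 27.5% of all genes, and the range was narrow, from -1.50 (Arhgap19) to -0.60 (Kif20a and Spc25). No member rose at an unadjusted p under 0.05, with DESeq2, or with limma on RPKM. The count was 25 with DESeq2 and 35 with only the 4 late libraries fitted. The all-gene share of 0.524% belongs to the main fit and cannot be set beside these 2 counts. The 16 calls rest on all 4 late libraries: 0 members passed without late WT replicate 1, late KO replicate 1 or late KO replicate 2, and 1 without late WT replicate 2. The median stayed between -0.91 and -1.01 when any 1 library of the experiment was left out.

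In late cells 5 of the 8 genes of mitotic entry fell. Ccnb1 had 77.6 and 62.5 CPM in WT and 34.4 and 30.8 in KO (log2 change -1.10 ± 0.24, edgeR adjusted p = 0.0404). Ccna2, at a higher level than in early cells, went from 572 and 512 CPM to 269.9 and 239 (log2 change -1.09 ± 0.17, edgeR adjusted p = 0.00995). Cdc25b, now far lower than in early WT, went from 66.8 and 77.2 CPM to 26.9 and 29.0 (log2 change -1.37 ± 0.25, edgeR adjusted p = 0.0211). Foxm1 had 168 and 196 CPM in WT and 79.0 and 90.1 in KO and fell by 1.10. Cdk1 (157 and 140.5 CPM against 85.3 and 89.4) and Plk1 (65.7 and 74.8 against 32.3 and 33.7) were separated between groups without passing, with edgeR adjusted p values of 0.0888 and 0.169.

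None of the 5 kinases and checkpoint genes passed in late cells, although their log2 changes ran from -0.78 (Bub1b) to -1.10 (Bub1). Cdc20 was 59.9 and 87.4 CPM in WT and 38.8 and 39.5 in KO. Of the passenger complex, Aurkb fell from 183 and 189 CPM to 82.0 and 92.6 (log2 change -1.09 ± 0.18, edgeR adjusted p = 0.0145) and Birc5 from 226 and 233 to 114 and 103 (-1.08 ± 0.21, edgeR adjusted p = 0.0286). Spc24 had the largest fall among kinetochore genes, from 84.2 and 87.0 CPM to 36.1 and 28.4 (log2 change -1.41 ± 0.26, edgeR adjusted p = 0.0238). Its partners in the NDC80 complex had log2 changes of -0.85 (Ndc80), -0.97 (Nuf2) and -0.60 (Spc25), none of which passed. Cenpe and Cenpf fell by 0.73 and 1.04.

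Kif11, the most abundant motor gene in late WT, went from 659 and 551 CPM to 287 and 268 (log2 change -1.12 ± 0.18, edgeR adjusted p = 0.0104). In the cytokinesis group Arhgap19 fell from 159 and 119.5 CPM to 47.2 and 51.4 (log2 change -1.50 ± 0.25, edgeR adjusted p = 0.0145). Shcbp1, a midbody protein, fell from 92.9 and 75.0 CPM to 35.6 and 34.6 (log2 change -1.26 ± 0.27, edgeR adjusted p = 0.0433). Kif23 and Kif20a, which overlapped between the early groups, were separated here. Kif23 was 206 and 176 CPM in WT and 112 and 124 in KO (log2 change -0.70 ± 0.19, edgeR adjusted p = 0.106). Kif20a was 147 and 128 CPM in WT and 91.7 and 90.3 in KO (-0.60 ± 0.27, edgeR adjusted p = 0.396). Mki67 fell from 3181 and 3012 CPM to 1539 and 1621 (-0.97 ± 0.13, edgeR adjusted p = 0.00681) and Top2a from 1607 and 1366 to 782 and 729 (-0.98 ± 0.16, edgeR adjusted p = 0.0148).

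**Figure D3:**
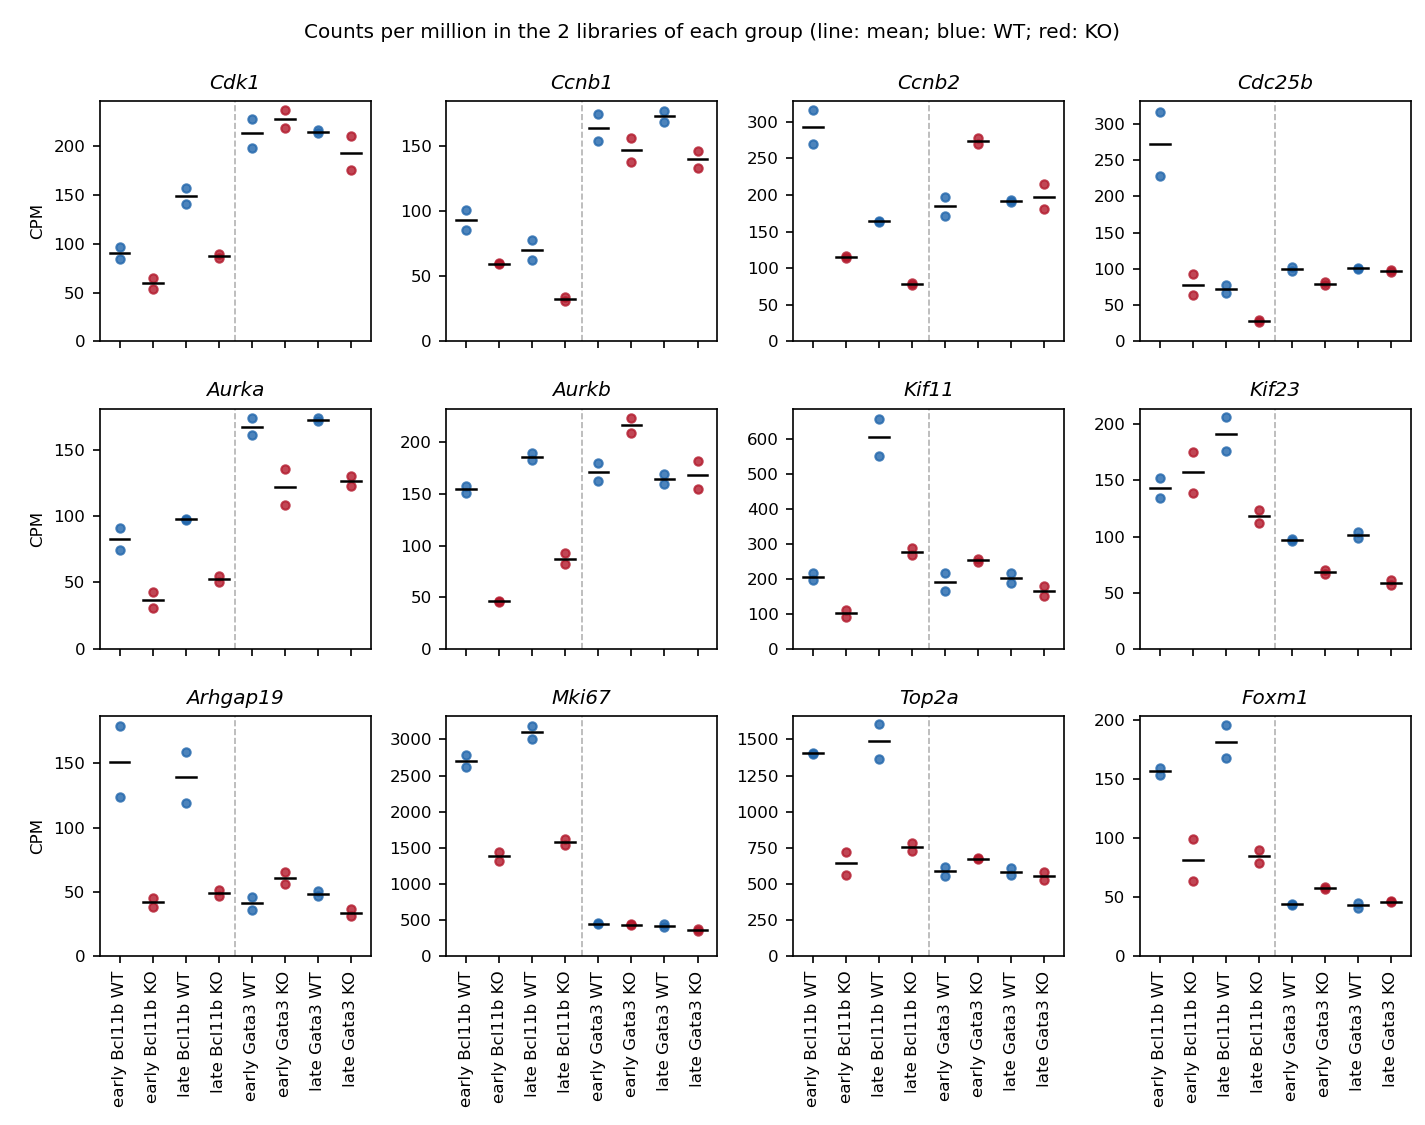
CPM of 12 mitosis genes in the 2 libraries of each group, with WT in blue, KO in red, the group mean as a line and the Bcl11b experiment left of the dashed line; each axis starts at 0. Mki67 is at 2619 and 2778 CPM in early Bcl11b WT and at 1324 and 1447 in early KO, while Kif23 is lower in KO in late Bcl11b cells and in both stages of the Gata3 experiment.

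Of the 21 members that fell in early and the 16 that fell in late Bcl11b KO, 13 were shared (61.9% of the early and 81.2% of the late calls). These 13 were Arhgap19, Aurkb, Birc5, Ccna2, Ccnb2, Cdc25b, Cdca3, Cenpe, Cenpf, Foxm1, Kif11, Mki67 and Top2a. Another 8 passed in early cells alone (Aurka, Bub1, Bub1b, Cdca8, Ect2, Kif2c, Tpx2 and Ttk) and 3 in late cells alone (Ccnb1, Shcbp1 and Spc24). A test of the difference between the late and the early KO effect called 0 of the 35 members by edgeR, against 1.29% of all genes lower and 1.95% higher. By DESeq2 it also called 0, and by limma on RPKM 28 were lower, a scale on which the all-gene median of this difference was -1.04. Without adjustment, 4 members had a p under 0.05. Ect2 (difference 1.01 ± 0.34), Cdca8 (0.72 ± 0.27) and Aurkb (0.66 ± 0.26) had the smaller change in late cells, and Kif23 (-0.83 ± 0.28) the larger.

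Between stages the members changed in both directions, in comparisons that share their libraries with the KO comparisons above. In late against early Bcl11b WT, 8 members rose and 2 fell (22.9% and 5.71%), against 19.7% of all genes rising and 22% falling. The share of rises was near that of all genes, and the member median was 0.30. In 21 members both late libraries lay above both early libraries (36.7% of all genes), and in 6 both lay below (35.5%). Kif11 rose from 196 and 216 CPM to 659 and 551 (log2 change 1.55 ± 0.18, edgeR adjusted p = 0.000106), and Shcbp1 from 32.3 and 24.3 to 92.9 and 75.0 (1.57 ± 0.28, edgeR adjusted p = 0.00146). The kinetochore genes Nuf2, Ndc80 and Spc25 rose by 1.37, 1.00 and 0.99, and Ccna2, Cdk1 and Prc1 by 0.95, 0.71 and 0.92. Cdc25b fell by 1.92 ± 0.25 (edgeR adjusted p = 0.000215) and Ccnb2 by 0.84. Mki67 and Top2a did not pass, with log2 changes of 0.20 and 0.08 (edgeR adjusted p = 0.252 and 0.707). In late against early KO, 11 members rose and 4 fell (17% and 19.6% of all genes), with Kif11 again higher by 1.45 and Cdc25b lower (log2 change -1.49), and Ccnb1 and Cdc20 among those that fell (by 0.87 and 1.01). The WT comparison rests on the 2 libraries that stand apart: without the filter on low values 16 members rose, and by limma on RPKM 33 rose. Without late WT replicate 1 the members that rose were 4 and without late WT replicate 2 they were 5, and without either late KO replicate 4 rose and 1 fell in the KO comparison. Without early KO replicate 1, 2 fell there.

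**Figure D4:**
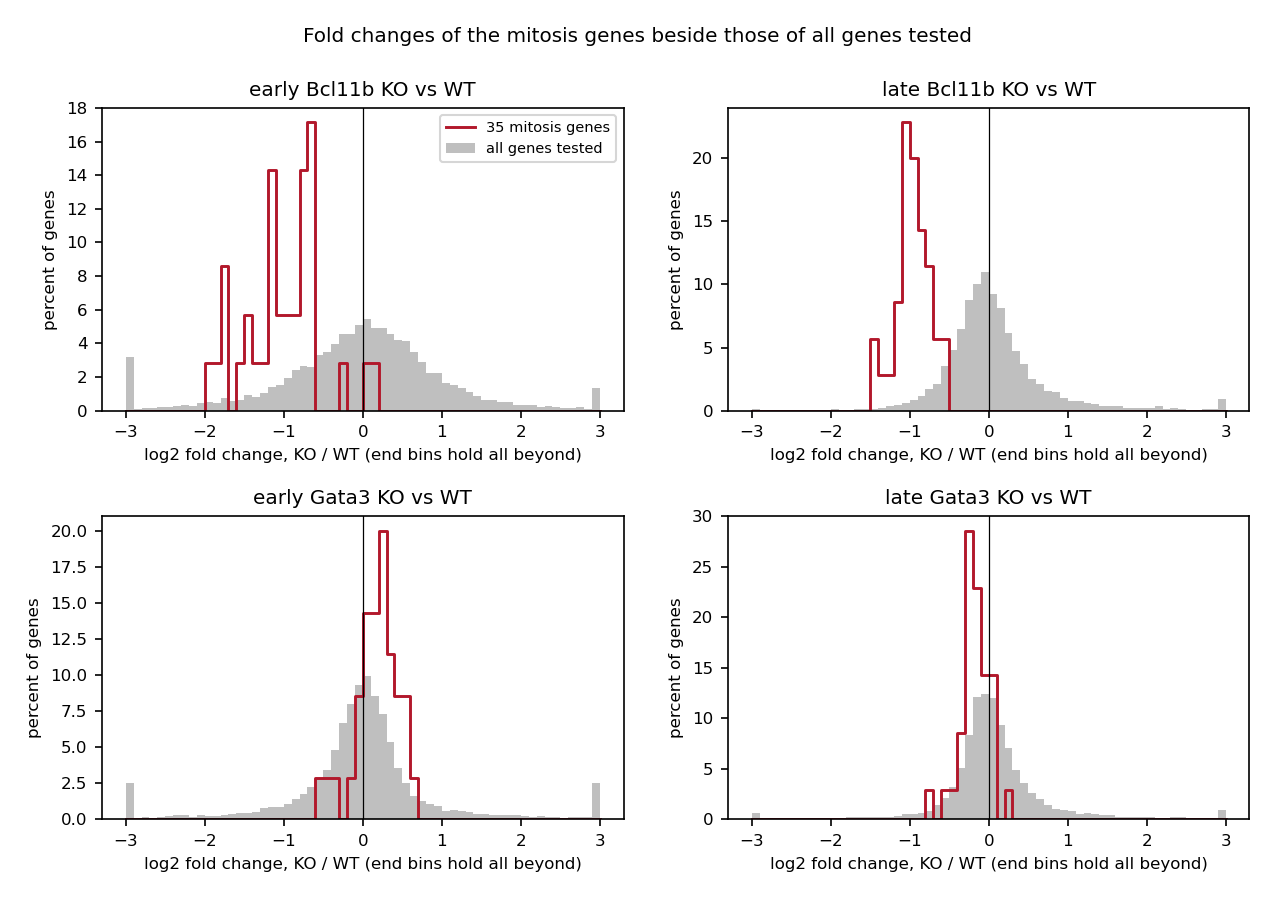
Percent of genes per log2 fold change of KO over WT, for all genes tested (grey) and for the 35 mitosis genes (red line), with all values beyond the axis in the end bins. The members' medians are -0.96 and -0.98 in early and late Bcl11b KO, and 0.22 and -0.19 in early and late Gata3 KO.

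Beyond the 35 members, 113 further mitosis genes from 9 lists by function were tested. The lists, like the members, were chosen with earlier results of these data known, so their counts are not independent support. In early Bcl11b KO 39 of the 113 genes fell and 1 rose (median -0.64), against 10.1% and 11% of all genes. In late Bcl11b KO 11 fell and 0 rose (median -0.71), against 0.524% and 1.69% of all genes. The lists of other cytokinesis genes and of condensin, the complex that compacts chromosomes, fell in early cells in 4 of 4 and 7 of 8 genes. Anln had a log2 change of -2.04, and the condensin genes with the smallest p were Smc2 (-1.06), Ncapd2 (-1.42) and Ncapd3 (-1.30). In late cells 0 of these 4 and 1 of these 8 passed. Other mitotic kinesins had 5 of 8 lower in early cells, with Kif14 at -1.93, and other spindle and centrosome genes 10 of 16, with Nusap1 at -1.11. Subunits and regulators of the anaphase-promoting complex, which marks cyclins for destruction, had 1 lower and 1 higher of 16 in early cells; Ube2c, its ubiquitin-conjugating enzyme, fell by 0.91 in early and 1.05 in late cells. Among other spindle checkpoint genes 0 of 8 passed by edgeR in either stage, with Kntc1 closest at -0.56 and -0.71 (edgeR adjusted p = 0.102 and 0.151). Genes of replication and the G1/S transition had a median of -0.09 in early cells, with 2 of 20 lower, a share near that of all genes, and 1 higher, and of -0.75 in late cells, with 2 lower (Cdt1 and Tk1).

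Of 10 tested genes that hold back the cell cycle, 3 rose and 2 fell in early Bcl11b KO, against 11% and 10.1% of all genes. In late KO 1 rose, against 1.69% of all genes. Cdkn1a, which encodes the inhibitor p21, was 648 and 587 CPM in early WT and 1110.0 and 1286 in early KO (log2 change 0.96 ± 0.20, edgeR adjusted p = 0.00771). In late cells it was 778 and 1103 CPM in WT and 1394 and 1764 in KO, which did not pass (0.75 ± 0.20, edgeR adjusted p = 0.0866). Ccng1 rose by 1.88 in early KO and had a late value of 0.38 (edgeR adjusted p = 0.554). Btg2 rose by 1.39 in late KO and had an early value of 0.30 (edgeR adjusted p = 0.408). Cdkn1b, which encodes p27, fell by 1.79 in early KO, and Cdkn2d was 137 and 73.3 CPM in early WT and 44.5 and 45.0 in early KO. Mdm2, a p53 target and antagonist outside that list, rose by 1.73 in early and 1.52 in late KO. In early Gata3 KO 3 of 11 inhibitor genes rose and 2 fell, against 14% and 16.8% of all genes, so the share of falls was near that of all genes. In late Gata3 KO 3 rose, against 8.44% of all genes. Btg2 rose in both stages (1.14 and 0.48). The part of the inhibitor genes in the mitosis gene result was not tested.

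Markers of other cell types also differed between the Bcl11b groups. The summed CPM of 5 B cell markers was 4.40 and 5.18 in late WT and 20.1 and 31.4 in late KO, and Cd79b passed the test (log2 change 2.33, edgeR adjusted p = 0.037). That of 7 macrophage and dendritic cell markers was 14.9 and 18.5 in late WT and 47.5 and 55.1 in late KO, with 0 of 4 tested passing by edgeR (Emr1 closest, edgeR adjusted p = 0.0635). In early cells the B cell sums were 86.8 and 102 in WT and 96.1 and 131 in KO, which overlap, and the macrophage and dendritic cell sums 61.6 and 98.3 in WT and 29.5 and 58.4 in KO. The CD8 T and NK cell sum was 48.4 and 42.5 in early WT and 99.5 and 83.2 in early KO, with Cd8b1 passing of 2 tested (log2 change 1.44). The erythroid and neutrophil sum was 23.9 and 27.4 in early WT and 13.2 and 10.6 in early KO, where Mpo fell from 18.4 and 23.3 CPM to 0.417 and 0 while Hba-a1 rose. The mast cell and basophil sum was 1.47 and 7.96 in early WT and 42.0 and 45.4 in early KO, all of it from Cpa3 in KO, since Mcpt4, Mcpt8 and Ms4a2 had no reads in either early KO library. Beside these, the members' summed CPM was 8571 and 8507 in early WT, 4342 and 4252 in early KO, 10541 and 9712 in late WT and 5196 and 5164 in late KO. The part of other cell types in the mitosis gene result was not tested.

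Loss of Gata3 went with small changes of either sign in early cells. In early Gata3 KO, 8 of 35 mitosis genes rose and 3 fell, against 14% of the 10601 genes tested rising and 16.8% falling, which is 22.9% and 8.57% of the members. The median log2 change was 0.22, against 0.00 over all genes. These shares and medians are from the fit without a replicate block. Bub1 had the largest rise, from 56.1 and 70.6 CPM in WT to 92.1 and 107 in KO (log2 change 0.65 ± 0.14, edgeR adjusted p = 0.00601). Ccnb2 rose from 172 and 197 CPM to 270.0 and 278 (0.57 ± 0.12, edgeR adjusted p = 0.00517), and Arhgap19 from 36.2 and 46.0 to 65.3 and 56.3 (0.56 ± 0.16, edgeR adjusted p = 0.0208). The other rises were those of Kif20a (0.51), Plk1 (0.47), Prc1 (0.41), Foxm1 (0.39) and Spc25 (0.39). By role these were 3 genes of mitotic entry, 1 checkpoint kinase, 1 kinetochore gene and 3 genes of the central spindle and cytokinesis. Leaving out early WT replicate 1, early KO replicate 1 or early KO replicate 2 reduced the rises to 2, 2 and 3, and with the replicate number as a block they were 14.

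The 3 genes that fell in early Gata3 KO were Kif23, Aurka and Cdc25b. Kif23, the kinesin of the centralspindlin complex, went from 97.9 and 96.2 CPM to 66.7 and 70.1 (log2 change -0.50 ± 0.10, edgeR adjusted p = 0.00478). Aurka went from 161 and 174 CPM to 135 and 108 (-0.46 ± 0.12, edgeR adjusted p = 0.0197), and Cdc25b from 97.5 and 103 to 81.4 and 77.2 (-0.34 ± 0.10, edgeR adjusted p = 0.0302). These groups did not overlap, although 22 members had both KO libraries above both WT libraries (33% of all genes) and only these 3 had both below (34.1%). Mki67, which was among the most abundant members in the Bcl11b experiment, overlapped between groups here. It was at 453 and 440.3 CPM in WT and 429 and 448 in KO (log2 change -0.03 ± 0.11, edgeR adjusted p = 0.881). Top2a was 556 and 619 CPM in WT and 669.6 and 679 in KO, which did not pass (0.20 ± 0.11, edgeR adjusted p = 0.213). Leaving out early WT replicate 2, early KO replicate 1 or early KO replicate 2 left 1 gene that fell.

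In late Gata3 KO cells, 2 members fell and 0 rose by edgeR, against 5.59% of all genes falling and 8.44% rising. The 2 falls are 5.71% of the members, a share near that of all genes. The median was -0.19. In 20 members both KO libraries lay below both WT libraries (25.6% of all genes), and in 2 both lay above (28.5%). No member rose at an unadjusted p under 0.05, nor by DESeq2 or limma on RPKM. Kif23 also fell here, from 98.6 and 104 CPM to 60.9 and 57.1 (log2 change -0.78 ± 0.11, edgeR adjusted p = 0.00113). Its log2 change stayed between -0.825 and -0.721 in the alternative fits, including those without any 1 library. Since the late WT libraries resemble early WT libraries of the same number, the falls in both stages are not shown to be independent. Aurka fell from 172 and 174 CPM to 123 and 131 (-0.45 ± 0.12, edgeR adjusted p = 0.041), a call lost when any 1 late library or either early WT library was left out. Plk1 (130.2 and 121 CPM in WT, 93.9 and 121 in KO), Mki67 (401 and 440.1 against 345 and 375) and Top2a (559 and 609 against 524 and 583) did not pass. Cenpf was the member with the largest positive value (0.29 ± 0.13, edgeR adjusted p = 0.207), and Arhgap19 was the lowest after Kif23 (50.6 and 46.6 CPM in WT, 30.9 and 36.8 in KO, log2 change -0.51 ± 0.16, edgeR adjusted p = 0.0623).

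Across the stages of the Gata3 experiment, 0 of the 35 members and 0 of 10601 genes differed between late and early WT by edgeR, DESeq2 or limma (128 genes and 0 members at an unadjusted p under 0.05 by edgeR). In late against early KO 8 members fell, against 10.3% of all genes: Ccnb2, Plk1, Bub1, Spc24, Spc25, Kif11, Prc1 and Arhgap19, by 0.42 (Spc25) to 0.83 (Arhgap19). Leaving out early KO replicate 1 reduced these to 3, early KO replicate 2 or late KO replicate 1 to 5, and leaving out late KO replicate 2 raised them to 17. With the replicate number as a block 21 fell and 1 rose, while the 10.3% of all genes is from the fit without it. The KO effect differed between stages for 4 members, lower in late cells in each case, against 4.47% of all genes lower and 7.74% higher: Arhgap19 (difference -1.07 ± 0.22, edgeR adjusted p = 0.0124), Bub1 (-0.88 ± 0.20, 0.019), Prc1 (-0.60 ± 0.15, 0.0317) and Plk1 (-0.68 ± 0.19, 0.048). Without early WT replicate 1, early KO replicate 1, early KO replicate 2 or late WT replicate 2 this count was 1, without late KO replicate 1 it was 2, and without late KO replicate 2 it was 8. With the replicate block it was 11, a fit to which the shares of 4.47% and 7.74% do not belong. Since same-numbered early and late WT libraries resemble each other, the independence of the controls of the 2 stages was not tested here. Gata3 RNA itself fell less in late than in early KO (difference 1.135 ± 0.156, edgeR adjusted p = 0.00148). The part of this in the stage differences was not tested.

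The other mitosis genes in early Gata3 KO showed 15 rises and 4 falls among 113 (median 0.18), against 14% and 16.8% of all genes, so the share of rises was near that of all genes. In late KO there were 0 rises and 1 fall (Sgol1, -0.56), against 8.44% and 5.59%. Stil and Cenpj, genes of centriole duplication, rose by 0.75 and 0.88 in early KO, and Cks2, a small binding partner of CDK1, fell by 0.67. Among replication and G1/S genes 2 of 20 rose in early KO (Ccne1 and Tyms) and 0 passed in late KO by edgeR, with Rrm2 closest (-0.62, edgeR adjusted p = 0.0618). Beside these, the summed CPM of 4 CD8 T and NK cell markers was 8.39 and 11.7 in early WT and 76.7 and 80.2 in early KO, with Klrb1c, Cd8a and Cd8b1 all passing and Ncr1 without a read in any of these 4 libraries. Klrb1c was also at 0 in early WT replicate 2. The macrophage and dendritic cell sum moved the other way, from 34.2 and 18.5 in early WT to 6.82 and 8.01 in early KO and from 41.5 and 25.4 in late WT to 17.2 and 13.7 in late KO. Emr1 went from 29.4 and 12.5 CPM in early WT to 0 in both early KO libraries. In late cells 1 of these 3 passed, Cd8a with a log2 change of 2.09. Their part in the mitosis gene values was not tested.

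The 2 knockouts were compared with each other in a fit of all 16 libraries (11544 genes), as the Bcl11b KO effect minus the Gata3 KO effect. In early cells this difference was lower for 26 members and higher for 1, against 12.2% and 14.4% of all genes, with a member median of -1.17. By limma on RPKM, a scale that the early Bcl11b WT libraries shift, 5 members were lower and 1 higher, with a median of -0.17. The largest were Arhgap19 (-2.40 ± 0.31, edgeR adjusted p = 6.89e-05), Aurkb (-2.08 ± 0.20, 3.32e-06) and Bub1 (-2.07 ± 0.40, 0.00146). Kif23 was the exception (0.65 ± 0.22, edgeR adjusted p = 0.0407), as it fell in early Gata3 KO and had a log2 change of 0.13 in early Bcl11b KO; it did not pass with the receptor read rate subtracted. In late cells 10 members had a lower difference, and 0 a higher one, against 1.36% and 2.29% of all genes: Ccna2, Ccnb2, Cdc25b, Foxm1, Aurkb, Cenpf, Spc24, Mki67, Top2a and Cdca3, with a member median of -0.81. Leaving out late Gata3 WT replicate 1 or 2 reduced these to 3 and 4, late Gata3 KO replicate 2 to 3, and either late Bcl11b KO replicate to 5, and leaving out either early Bcl11b WT replicate gave 15. The experiments share no library, and the labels do not state whether 4-OHT was used in the Gata3 experiment. What else differed between the experiments cannot be told apart from the deleted gene.

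Binding of Bcl11b and GATA3 was measured once each by chromatin immunoprecipitation (ChIP) in late WT Th2 cells, with an input library and no replicate. A Bcl11b peak with its centre within 1000 bases of the transcription start that the authors' list gives as closest was present at 10 of the 35 members (28.6%), against 30.9% of the genes tested, after peaks that overlap an input peak were left out. A GATA3 peak was present at 8 members (22.9%, against 16.4%). Ccna2, Kif23 and Ndc80 had both. None of the members' peaks reached an authors' fold enrichment of 10, which 0.202% and 0.322% of tested genes had for Bcl11b and GATA3.

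At Cdk1 the Bcl11b peak (mm10 chr10:69352575-69353443) had 32 reads and a fold enrichment of 2.58 in the authors' deposited table, with its centre 98 bases from the start, and it spans the promoter sequence shown. At Aurka the peak (chr2:172369961-172371287) had 66 reads and a fold of 3.59, and at Kif11 the peak (chr19:37375538-37376493) had 30 reads and a fold of 1.4; both also span the sequence shown. Ccna2 had the strongest of the members' Bcl11b peaks by fold (4.73, 49 reads). The other members with a Bcl11b peak were Cdc25c, Kif20a, Kif23, Ndc80, Shcbp1 and Spc25. For GATA3 the members were Bub1, Ccna2, Cenpe, Ect2, Kif23, Mki67, Ndc80 and Ttk, with folds from 1.4 (Ndc80) to 3.47 (Ect2). Cdc25b had the strongest GATA3 peak near a member (chr2:131188211-131188802, 33 reads, fold 7.37), centred 1559 bases from its start and so outside the window. Of the 10 members with a Bcl11b peak, 3 fell in early and 3 in late Bcl11b KO (medians -0.74 and -0.85); of the 25 without one, 18 and 13 fell (medians -1.11 and -0.99). Of the 8 with a GATA3 peak, 1 fell and 1 rose in early Gata3 KO, and of the 27 without one 2 fell and 7 rose.

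By promoter element, the ranges of change overlapped. The 10 members with a CHR had medians of -1.08 and -0.98 in early and late Bcl11b KO, with 7 and 5 of them called lower. The 17 matched members without one had medians of -0.82 and -0.91, with 10 and 6 called. Only the exact letters TTTGAA before the start were counted, so these 17 are members in which that sequence was not found. Cdc25b, with no CHR and 1 CCAAT box, was among the members that fell most in both stages, and so was Arhgap19, with both elements close together. In early Gata3 KO the medians were 0.21 with and 0.20 without a CHR, and the 3 genes that fell had none.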

How the data were processed

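RNA was measured in 16 libraries in 8 groups of 2, and binding in 3 ChIP libraries (Bcl11b, GATA3, input). The authors deposited raw read counts and RPKM per RefSeq transcript; the counting tool, strand and multi-mapping rule are not stated. The submitters' processing notes name mm10, CASAVA 2.18, TopHat2 2.0.13, Bowtie, Novoalign and MACS 1.4.2 without their roles. The deposited peak lists give the authors' read count, fold enrichment and false discovery rate in percent for each peak, 1 library per list; the percent column was not used for selection.

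Counts were fitted with edgeR 4.0.16 (R 4.3.3; TMM, quasi-likelihood F test) on the 8 libraries of an experiment, or all 16 to compare the knockouts. Genes were kept where 2 or more libraries had an RPKM of 1 or above. P-values were Benjamini-Hochberg adjusted over all tested genes and called under 0.05. Shares of all genes called are those of these main fits, not of the alternatives. Errors of log2 changes are standard errors, taken as the absolute change over the square root of F. CPM values use TMM-scaled library sizes. Alternatives were DESeq2 1.42.0, limma 3.58.1 on log2(RPKM + 1), no filter, the longest transcript, a subtracted receptor read rate, only the 4 libraries compared, the replicate number as a block, and each library left out. Peaks were joined through the authors' closest gene, and those overlapping an input peak by at least 1 base were left out. The fitting code was tested on simulated data. Python 3.11.15, numpy 2.4.6, pandas 2.3.3, scipy 1.17.1 and matplotlib 3.10.9 were used for the rest.

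The members and gene lists were chosen with earlier results of these data known. All members could be named; other genes were named only from the lists, as up to 3 called genes with the smallest p per list and knockout comparison or, where none was called, the gene with the smallest p, besides the deleted genes and the Th2 markers. The result of 1 marker gene is not reported here.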

Additional observations from a re-analysis of the deposited data

Results flagged for a closer look

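The Gata3 KO effect differed between stages for 4 mitosis genes, by the test of the difference itself. These were 11.4% of the members, all lower in late cells, against 4.47% of all genes lower and 7.74% higher. That count depended on the libraries included and on whether the replicate number was used as a block. Late minus early, the log2 difference was -1.07 for Arhgap19, -0.88 for Bub1, -0.68 for Plk1 and -0.60 for Prc1. Each of these rose in early KO and had a late value that did not pass. Same-numbered early and late WT libraries resembled each other more than the replicates of a stage did. Whether the WT controls of the stages are independent was not tested. Gata3 RNA itself fell less in late than in early KO (log2 difference 1.135), and the part of this was not tested.

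In the fit of all 16 libraries, the Bcl11b and Gata3 KO effects differed for 27 mitosis genes in early cells. Of these, 26 were lower and 1 higher, against 12.2% and 14.4% of all genes. In late cells 10 were lower and 0 higher, against 1.36% and 2.29% of all genes. That late count depended on the libraries included. By limma on RPKM 5 were lower and 1 higher in early cells. The experiments share no library, and the deleted gene cannot be told apart from what else differed between them.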

How the results depend on the processing

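Counts below are of mitosis genes, and the shares of all genes called that are given above belong to the main fits only. With limma on log2(RPKM + 1), early Bcl11b KO had 2 lower and 3 higher, late against early Bcl11b WT 0 lower and 33 higher, late against early Bcl11b KO 1 lower, the Bcl11b stage difference 28 lower, early Gata3 KO 1 lower, late Gata3 KO 1 lower and the early difference between knockouts 5 lower. On that scale the early Bcl11b log2 changes turned positive for Birc5 (0.29), Bub1b (0.0571), Ccna2 (0.11), Cenpe (0.32), Foxm1 (0.15), Kif11 (0.11), Mki67 (0.18), Top2a (0.00905) and Tpx2 (0.34). Late Bcl11b KO had 25 lower with DESeq2 and 35 with only the 4 libraries compared; late Gata3 KO had 1 lower with only these. Without the filter, 16 rose in late against early Bcl11b WT, 16 fell in late against early Gata3 KO and 8 had a lower Gata3 stage difference. With the receptor read rate subtracted, 4 fell in late against early Bcl11b WT and 0 were higher in the early difference between knockouts. The cause of these shifts was not tested.

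With the replicate number as a block, 14 rose in early Gata3 KO, 4 fell in late Gata3 KO, 21 fell and 1 rose in late against early Gata3 KO, and 11 had a lower Gata3 stage difference; early Bcl11b KO kept a count of 21. Correlations of same-numbered deviations were -0.0738 to 0.318 in the Bcl11b and 0.158 to 0.581 in the Gata3 experiment. With only 2 numbers, these were not taken to pair the samples. Whether same-numbered Gata3 libraries share a source was not tested, and the Gata3 counts depend on whether the block is used.

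Leaving out 1 library gave 19 to 26 lower in early and 0 to 21 lower in late Bcl11b KO. Late against early Bcl11b WT gave 2 to 3 lower and 4 to 9 higher, and KO 1 to 4 lower and 4 to 13 higher. Early Gata3 KO gave 1 to 3 lower and 2 to 11 higher, late Gata3 KO 1 to 2 lower, late against early Gata3 KO 3 to 17 lower and the Gata3 stage difference 1 to 8 lower. The difference between knockouts gave 21 to 29 lower and 0 to 1 higher in early and 3 to 15 lower in late cells. Where an arm kept 1 library, it was assumed to vary like the other groups.

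At an authors' fold of at least 10, 0 members had a Bcl11b peak and 0 a GATA3 peak. Within 5000 bases 15 members had a GATA3 peak (42.9%, against 31.5% of tested genes) and 10 a Bcl11b peak (28.6%, against 36.6%). With peaks overlapping input kept, 15 had a Bcl11b peak (42.9%, against 41.1%) and 12 a GATA3 peak (34.3%, against 19%). With 2 libraries a group and a biological coefficient of variation of 0.281 in the Bcl11b against 0.125 in the Gata3 experiment, small changes in the former were not detectable. In the simulated data for late KO against WT, 2-fold changes were recovered in 20% of changed genes in the Bcl11b and 82% in the Gata3 experiment. For 4-fold changes these shares were 79% and 99%. A member that did not pass in the Bcl11b experiment is therefore not shown to be unchanged. The lowest member had 93 to 373 reads per library.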
